A study of Mus musculus with 8 samples.

Results

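Retinoids are the vitamin A family, and 8 of the 32285 genes measured in aortic cells of aged mice are described here by their raw UMI counts across endothelial-, fibroblast- and smooth muscle-like cells. They are Rbp4 and Rbp7, which encode retinol-binding proteins, the retinol receptor gene Stra6, the alcohol dehydrogenases Adh1 and Adh7, the retinal dehydrogenases Aldh1a1 and Aldh1a2, and Rarres2, which encodes the adipokine chemerin and was named for its response to a synthetic retinoid. All 8 were found by symbol in the deposited gene list. Their levels in these same cells were known when they were chosen, so the levels are a description and carry no test.

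The cells came from the ascending thoracic aorta (the part nearest the heart) of 3 wildtype mice of 81, 84 and 88 weeks and were profiled by single-cell RNA sequencing, after hashtag antibodies had marked each animal's cells before pooling. Strain and sex are not given in the sources used here, and no treatment or altered allele is named. Collagenase (10 mg/mL) and elastase (1 mg/mL) freed the cells over 60 min at 37 °C. The 4 gene expression and 4 hashtag libraries come from a single pool, and the deposited matrix does not keep the libraries apart. The groups compared are cell classes of the same animals, rebuilt from marker genes: 1072 endothelial-like, 1249 fibroblast-like and 5058 smooth muscle-like cells. Levels are given as CPM, the UMIs of a gene per 1000000 gene UMIs of the cells summed. UMIs, or unique molecular identifiers, count captured molecules. Values in every set, always in the order of 81, 84 and 88 weeks, are sums over the cells with exactly 1 hashtag, and n = 3 sets for every mean ± SD. The 3 sets went through a single pooled run, so their spread does not cover differences between runs.

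Retinol, the alcohol form of vitamin A, leaves the liver bound to the protein of Rbp4, and in several tissues STRA6 takes it into cells. Within cells, binding proteins such as that of Rbp7 hold retinol, alcohol and short-chain dehydrogenases oxidise it to retinal, and the retinal dehydrogenases of the Aldh1a family convert retinal to retinoic acid. Retinoic acid acts through the nuclear receptors RAR and RXR and is broken down by enzymes of the Cyp26 family. In the vessel wall it is known as a regulator of smooth muscle growth and differentiation.

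The file held 26916 barcodes with a median of 2975 gene UMIs (range 900 to 104654), and no barcode occurred more than once. After filtering, 10121 cells were clustered, of which 3991 had exactly 1 hashtag: 546, 2436 and 1009 cells with 4915448, 16607751 and 7604439 UMIs. The hashtag was found alone in 89.7% of endothelial-like cells, against 15.5% of fibroblast-like and 14.5% of smooth muscle-like cells, so the fibroblast-like sets rest on 38, 112 and 44 cells. All 10 markers of their own class were raised in each of the endothelial-, fibroblast- and smooth muscle-like clusters. The sets also held RNA of T cells. The summed level of 10 T cell markers, all of them detected, was 175, 594 and 256 CPM in the endothelial-like sets, 243, 1145 and 1035 CPM in the fibroblast-like sets and 137, 716 and 350 CPM in the smooth muscle-like sets, and its part in the results was not tested. RNA of the erythroid lineage was more abundant and also uneven. The summed level of 6 erythroid markers was 10128, 16278 and 13153 CPM in the endothelial-like sets (4, 5 and 5 of them detected), 1319, 4774 and 1262 CPM in the fibroblast-like sets (3, 3 and 2) and 1198, 825 and 706 CPM in the smooth muscle-like sets (5, 3 and 4), with Klf1 at 0 in all but the smooth muscle-like set of 81 weeks, and its part was not tested either. Among T cell-like cells the 8 genes ranged from 0 for Stra6 to 31.3 CPM for Rarres2, which serves below as the level that free RNA can give.

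**Figure D1:**
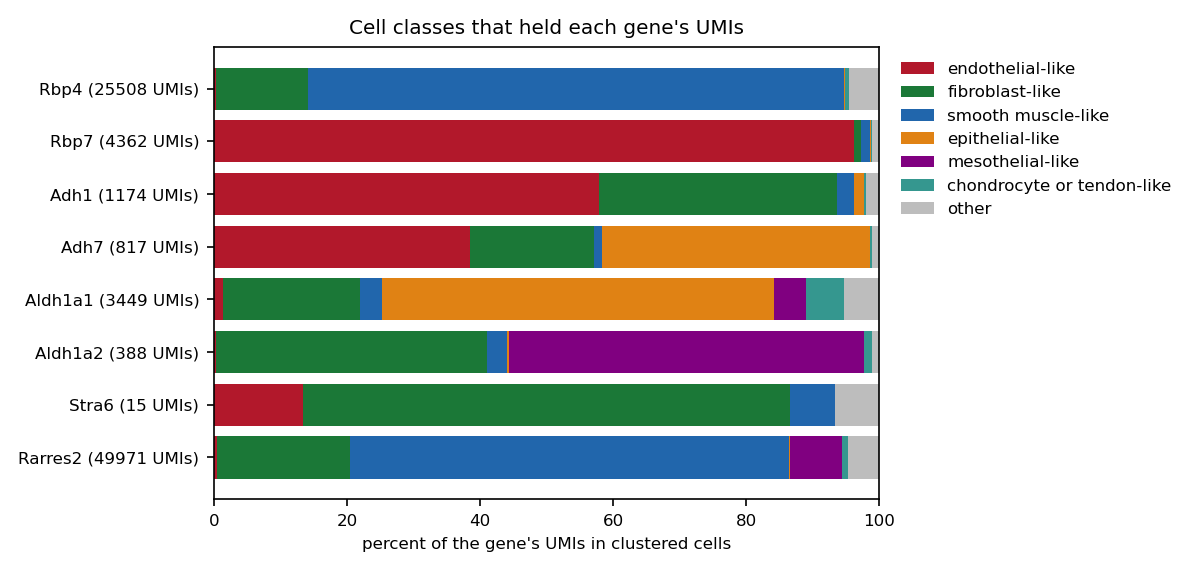
Share of each gene's UMIs by cell class (horizontal axis, percent of the gene's UMIs in all 10121 clustered cells), with a bar for each of the 8 genes and a colour for each class. Rbp4 (80.4%) and Rarres2 (66.0%) lay mostly in smooth muscle-like cells and Rbp7 (96.3%) in endothelial-like cells, while Aldh1a1 (58.9%) and Adh7 (40.3%) had their largest shares in epithelial-like cells.

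The members were unevenly abundant and unevenly placed. In all clustered cells there were 49971 UMIs of Rarres2, 25508 of Rbp4, 4362 of Rbp7, 3449 of Aldh1a1, 1174 of Adh1, 817 of Adh7, 388 of Aldh1a2 and 15 of Stra6. These totals follow the number and depth of the cells as well as the level in each, since smooth muscle-like cells outnumbered the others and had a median of 11221 UMIs, against 7538 in fibroblast-like and 4096 in endothelial-like cells. The sections that follow therefore use CPM.

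Adh7 and Adh1 lie side by side on chromosome 3 (GRCm38.p6) on the plus strand, and Rbp7 lies on chromosome 4 on the minus strand. These promoters are shown because Adh7 and Adh1 share a peak in the Vwf and Bmp4 endothelial-like cluster, in which Rbp7 was low. Each window runs from 250 bases before to 50 bases after a transcription start that RefSeq gives, 5′ to 3′ on the gene's strand, and capitals mark a match to TATAAA on either strand. The Adh7 and Rbp7 windows lie inside the annotated gene spans (chr3:138198064-138232042 and chr4:149449687-149466462), not at their upstream ends.
Adh7 chr3:138217523-138217822: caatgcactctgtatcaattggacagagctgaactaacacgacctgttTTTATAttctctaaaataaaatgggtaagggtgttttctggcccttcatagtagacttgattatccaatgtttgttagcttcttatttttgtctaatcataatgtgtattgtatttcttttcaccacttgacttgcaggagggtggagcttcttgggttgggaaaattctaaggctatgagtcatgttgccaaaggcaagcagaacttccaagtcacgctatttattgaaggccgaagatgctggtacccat
Adh1 chr3:138277335-138277634: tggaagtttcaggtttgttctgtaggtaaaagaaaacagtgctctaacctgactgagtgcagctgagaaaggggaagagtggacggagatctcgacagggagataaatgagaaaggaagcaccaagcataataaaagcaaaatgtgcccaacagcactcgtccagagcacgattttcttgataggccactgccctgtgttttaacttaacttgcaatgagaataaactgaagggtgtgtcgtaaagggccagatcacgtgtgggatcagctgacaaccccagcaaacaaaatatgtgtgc
Rbp7 chr4:149454919-149455218: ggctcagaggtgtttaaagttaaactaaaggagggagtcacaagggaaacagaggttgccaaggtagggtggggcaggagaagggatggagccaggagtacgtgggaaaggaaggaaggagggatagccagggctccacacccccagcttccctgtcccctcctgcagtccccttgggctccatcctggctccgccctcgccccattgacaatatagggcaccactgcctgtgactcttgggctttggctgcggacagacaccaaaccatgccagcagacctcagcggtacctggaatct

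RefSeq promoters were matched for 7 of the 8 members, in 12 windows, and Rarres2 had none in the table. For Adh7, Rbp7 and Stra6 no window lies at the upstream end of the gene span, so that end was not searched. The retinoic acid response element is built from repeats of AGGTCA or of close variants of it. Only the exact AGGTCA was searched for, so these matches do not show whether the windows hold variants. This 6-base motif was found on neither strand of any of the 12 windows, while 16.3% of 32851 promoters of the same length hold it. TATAAA on either strand was found in windows of 2 members, at position -202 from the start in Adh7, where it reads TTTATA on the gene's strand, and at position -28 in Rbp4. Of all promoters 13.6% hold it. G and C made up 39.3% of the Adh7 window, 45.3% of the Adh1 window and 58.3% of the Rbp7 window.

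Of the carriers, Rbp4, the gene of the plasma retinol carrier, was found in fibroblast-like and smooth muscle-like cells alike. Its level was 12.5, 11.01 and 8.14 CPM in the endothelial-like sets, 226, 281 and 424 CPM in the fibroblast-like sets, and 326, 287 and 294 CPM in the smooth muscle-like sets. Fibroblast-like and smooth muscle-like sets overlapped, with means of 310 ± 102 and 302 ± 20.6 CPM (ratio 1.03), and every one of them lay above every endothelial-like set, whose mean was 10.6 ± 2.23 CPM. The mean of the endothelial-like sets was also no higher than the 15.4 CPM of T cell-like cells, and without doublet removal it was 72.4 CPM. Cells without a hashtag gave 32.0 CPM for endothelial-like, 370 CPM for fibroblast-like and 347 CPM for smooth muscle-like cells.

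Within both classes Rbp4 differed between clusters. Among fibroblast-like cells the cluster led by Hhip and Serpinf1 (487 cells) held 529, 618 and 906 CPM, and the cluster led by Pi16 and Clec3b (762 cells) held 64.1, 117 and 195 CPM. The sets did not overlap, and the means were 684 ± 197 and 125 ± 66.0 CPM. These sets rest on 14, 40 and 14 cells and on 24, 72 and 30 cells. The clusters were defined on these same cells. The share of all genes without overlap was not counted for any pair of clusters. Overlap between clusters, here and below, is therefore a description. Over all cells of each cluster, with or without a hashtag, the levels were 723 and 143 CPM.

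Among smooth muscle-like cells Rbp4 was lowest in the cluster led by Tnnt2 and Actc1, genes of striated muscle, at 181 CPM over 1321 cells. The other clusters held 419 CPM (led by Igfbp2 and Fn1), 389 CPM (Tcap and Mylk4), 328 CPM (Mylk4 and Npnt) and 312 CPM (Hspa1a and Hspa1b). In the sets, the Tnnt2 and Actc1 cluster held 186, 146 and 184 CPM, against 427, 387 and 283 CPM in the Igfbp2 and Fn1 cluster and 424, 327 and 306 CPM in the Tcap and Mylk4 cluster. It lay below both of these in every set, while the Igfbp2 and Tcap clusters overlapped each other. The Hspa1a and Hspa1b cluster spread from 107 to 395 CPM over the sets and overlapped all the others. At a finer clustering (resolution 1.2), 478 cells led by Tnnt2 and Actc1 held 70.3 CPM. The Mylk4 and Npnt cluster had 1186 CPM of summed T cell markers, against 62.0 to 79.6 CPM in the other smooth muscle-like clusters, and its sets ranged from 210 to 366 CPM of Rbp4. It made up 11.6%, 55.0% and 21.1% of the smooth muscle-like cells of the sets, so these sets rest on unlike mixes of clusters.

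Counted by cells thinned to 1000 UMIs each, 21.7% of fibroblast-like cells (95% exact interval 19.4 to 24.1) and 24.2% of smooth muscle-like cells (23.0 to 25.4) had an Rbp4 UMI. The share was 1.40% in endothelial-like and 2.09% in T cell-like cells, whose median depth was 3747 UMIs. Without thinning these shares were 49.96%, 71.1%, 5.41% and 6.37%, in the same order. Within fibroblast-like cells the thinned share was 37.4% in the Hhip and Serpinf1 cluster and 11.7% in the Pi16 and Clec3b cluster. Intervals on shares and pooled levels cover counting error only.

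Rbp7 encodes an intracellular retinol-binding protein that is known from fat and from endothelium. It was found at 414, 936 and 732 CPM in the endothelial-like sets, 5.58, 18.8 and 13.5 CPM in the fibroblast-like sets and 2.88, 0.820 and 1.40 CPM in the smooth muscle-like sets. No set of any class overlapped a set of another, and the means were 694 ± 263, 12.6 ± 6.67 and 1.70 ± 1.06 CPM. The endothelial-like mean was 54.9 times the fibroblast-like mean. The fibroblast-like level was 1.83 CPM in cells without a hashtag, below the 2.93 CPM of T cell-like cells, and 10 endothelial markers summed to 92.0, 225 and 184 CPM in the fibroblast-like sets (8, 9 and 8 of 10 detected, with Emcn and Cldn5, Vwf, and Tie1 and Vwf at 0). The same markers summed to 7079, 7093 and 7080 CPM in the endothelial-like sets. Their part in the fibroblast-like level was not tested.

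Endothelial-like clusters differed widely in Rbp7. The cluster led by Gpihbp1 and Fabp4 (973 cells), genes known from capillary endothelium, held 472, 1038 and 958 CPM, and the cluster led by Vwf and Bmp4 (99 cells) held 0, 13.9 and 2.30 CPM. The sets were far apart. When cells with 1 hashtag were clustered alone, a further cluster of 236 cells led by Sema3g, Flt1 and Btnl9 separated, and it held 1294, 1614 and 1833 CPM. A cluster led by Timp4 and Gpihbp1 (581 cells) then held 216, 673 and 664 CPM and the Vwf and Bmp4 cluster (71 cells) 0, 4.85 and 2.30 CPM. The order was the same in every set, and the means were 1581 ± 271, 518 ± 261 and 2.38 ± 2.43 CPM. A small cluster led by Prnd and Apln (36 cells) held 293 CPM.

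After thinning to 1000 UMIs, 34.8% of endothelial-like cells (31.9 to 37.7) had an Rbp7 UMI, against 0.321% of T cell-like cells. Without thinning the shares were 58.9% and 1.23%.

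**Figure D2:**
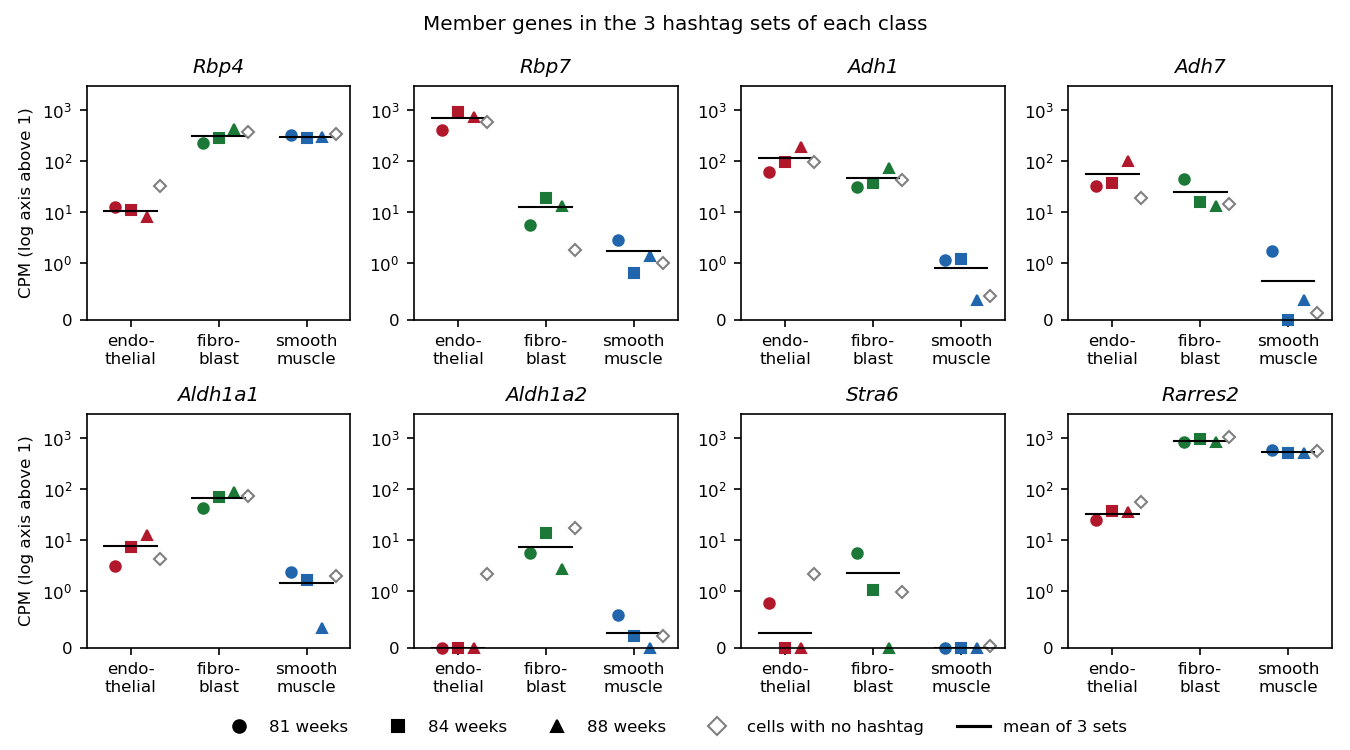
Levels of the 8 genes in endothelial-, fibroblast- and smooth muscle-like cells (vertical axis, CPM, logarithmic above 1 and linear below), with a circle, square and triangle for the sets of 81, 84 and 88 weeks, a line at the mean of the 3 sets and a grey diamond for cells without a hashtag. Rbp7 in the endothelial-like sets (414 to 936 CPM) lies above the Rbp7 level of every other set, and Rbp4 and Rarres2 are low in the endothelial-like sets (8.14 to 12.5 and 24.3 to 36.2 CPM).

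Stra6, the gene of the membrane receptor that takes up retinol from its plasma carrier, was nearly absent from the counts. There were 15 UMIs in 93799720, of which 11 were in fibroblast-like, 2 in endothelial-like, 1 in smooth muscle-like and 1 in erythroid-like cells. The fibroblast-like level was 5.58, 1.05 and 0 CPM in the sets and 1.11 CPM over all fibroblast-like cells. At this depth no order of the clusters could be read for it.

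The alcohol dehydrogenases, which can oxidise retinol to retinal, were endothelial- and fibroblast-like in their distribution. Adh1 held 61.1, 95.9 and 188 CPM in the endothelial-like sets, 30.7, 36.6 and 73.0 CPM in the fibroblast-like sets and 1.15, 1.23 and 0.350 CPM in the smooth muscle-like sets. The endothelial-like and fibroblast-like sets overlapped, at means of 115 ± 65.4 and 46.7 ± 22.9 CPM, although the endothelial-like value was the higher in all 3 animals. Both lay above every smooth muscle-like set (mean 0.910 ± 0.487 CPM), and the smooth muscle-like level was no higher than the 1.52 CPM of T cell-like cells. In thinned cells an Adh1 UMI was found in 8.21% of endothelial-like and 4.00% of fibroblast-like cells, against 0.107% of T cell-like cells.

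Adh7 held 32.1, 36.7 and 99.8 CPM in the endothelial-like sets, 44.6, 15.7 and 13.5 CPM in the fibroblast-like sets and 1.73, 0 and 0.350 CPM in the smooth muscle-like sets. Endothelial-like and fibroblast-like sets overlapped (means 56.2 ± 37.8 and 24.6 ± 17.4 CPM), and the set of 81 weeks had the higher value in its fibroblast-like cells. Cells without a hashtag held 19.2 CPM in endothelial-like and 14.2 CPM in fibroblast-like cells. Without doublet removal the cluster that carries Adh7 was no longer part of the endothelial-like class, whose mean level was then 0.437 CPM.

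Both genes peaked in the same endothelial-like cluster. The Vwf and Bmp4 cluster held 214, 398 and 538 CPM of Adh1 and 258, 361 and 421 CPM of Adh7. The Gpihbp1 and Fabp4 cluster held 39.4, 62.6 and 79.5 CPM of Adh1, and 3 UMIs of Adh7 in all its cells (0.629 CPM). The sets of the clusters did not overlap for either gene, and the share over all genes was not counted. The means in the Vwf and Bmp4 cluster were 383 ± 162 and 346 ± 82.2 CPM. Clustering the cells with 1 hashtag alone gave 390 ± 164 CPM of Adh1 and 352 ± 84.3 CPM of Adh7 there, with 43.2 CPM of Adh1 and no UMI of Adh7 in the Sema3g, Flt1 and Btnl9 cluster.

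The Vwf and Bmp4 cluster made up 8.94%, 4.34% and 10.6% of the endothelial-like cells of the sets. Besides its 10 endothelial markers (summed level 6126 CPM, against 7222 CPM in the Gpihbp1 and Fabp4 cluster) it held lymphatic markers at a sum of 923 CPM, with 4 of 5 detected and Ccl21a at 0, against 42.6 CPM in the Gpihbp1 and Fabp4 cluster. The erythroid markers summed to 2386 CPM in the Vwf and Bmp4 cluster and 16342 CPM in the Gpihbp1 and Fabp4 cluster. The part of these markers in the Adh levels was not tested. Of its 99 cells 54 had an Adh1 UMI and 46 an Adh7 UMI, and 34 had both, which is 63.0% of the cells with Adh1 and 73.9% of those with Adh7. After thinning, 22.2% of its cells had an Adh1 UMI and 19.2% an Adh7 UMI.

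Among fibroblast-like cells both alcohol dehydrogenases were found mainly in the Pi16 and Clec3b cluster. It held 47.0, 37.4 and 99.7 CPM of Adh1 and 68.4, 23.4 and 19.9 CPM of Adh7. The Hhip and Serpinf1 cluster held 0, 35.0 and 16.8 CPM of Adh1 and no UMI of Adh7 in any set, and 2.72 CPM of Adh7 over all its cells. The sets did not overlap for either gene, and the share over all genes was not counted. They rest on 14, 40 and 14 cells of the Hhip and Serpinf1 cluster and 24, 72 and 30 of the Pi16 and Clec3b cluster. At so few cells, 0 UMIs is not read as absence. In the Pi16 and Clec3b cluster 196 of 762 cells had an Adh1 UMI, 79 an Adh7 UMI and 38 both, which is 19.4% of the cells with Adh1 and 48.1% of those with Adh7.

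Adh7 and Adh1 are neighbours (chr3:138198064-138232042 and chr3:138277585-138290698, GRCm38.p6), 45.5 kb apart with no annotated protein-coding gene between them. Of the other genes of the family, Adh5, whose enzyme clears formaldehyde, held 76.0 CPM in the Vwf and Bmp4 cluster, 59.1 CPM in the Pi16 and Clec3b cluster and 65.1 to 73.6 CPM in the smooth muscle-like clusters led by Tnnt2, Tcap, Igfbp2 and Hspa1a. Adh4, Adh6a and Adh6b had no UMI in any of these clusters.

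**Figure D3:**
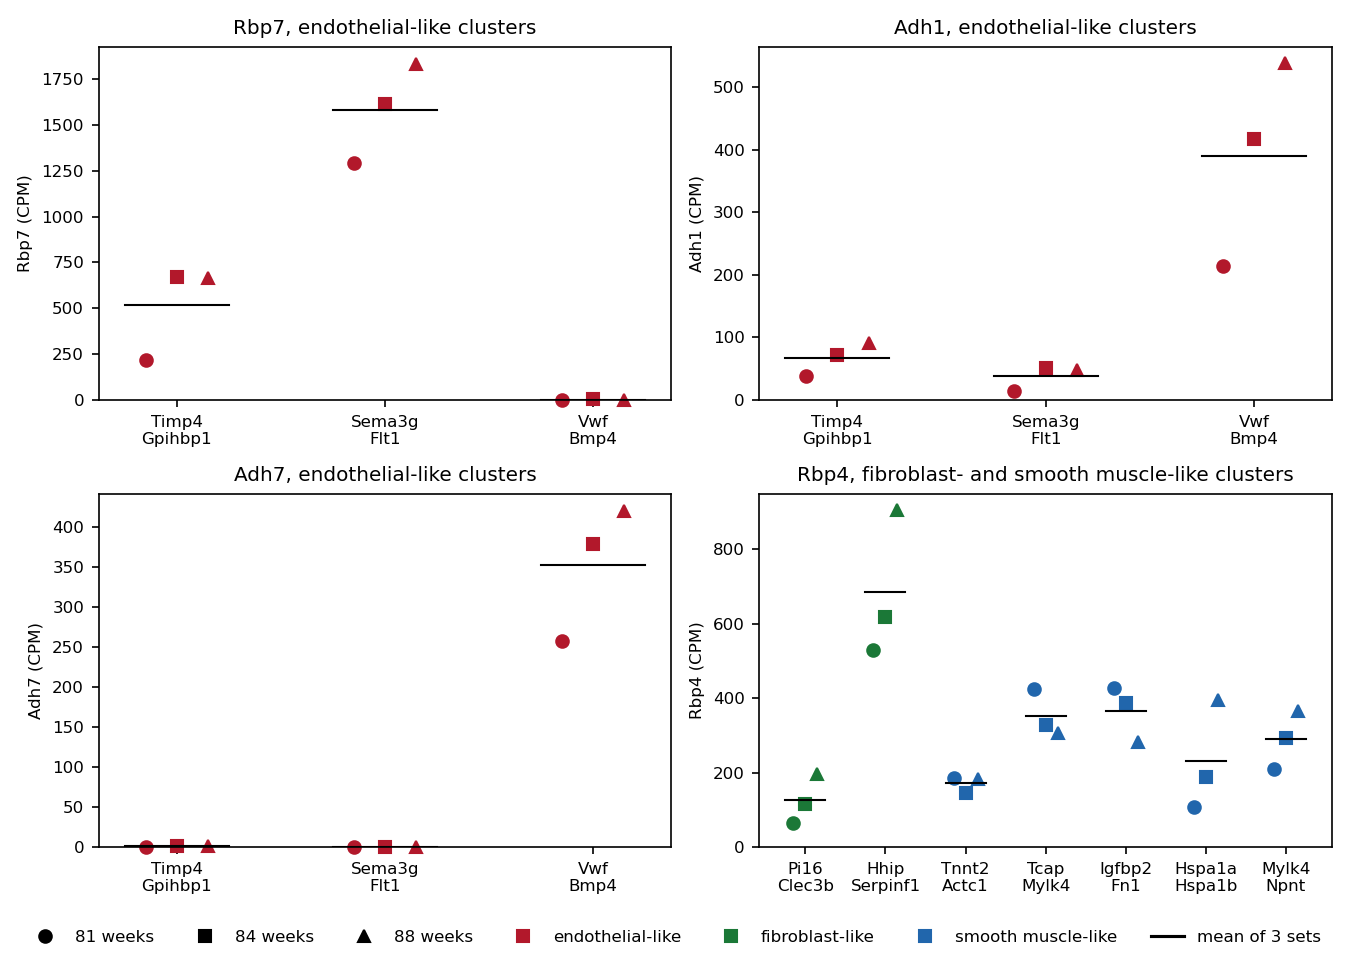
Levels of Rbp7, Adh1 and Adh7 in the endothelial-like clusters of cells with 1 hashtag clustered alone, and of Rbp4 in the fibroblast- and smooth muscle-like clusters (vertical axes, CPM), with a point for each set of 81, 84 and 88 weeks and a line at their mean. Rbp7 is highest in the Sema3g and Flt1 cluster (1294 to 1833 CPM), Adh1 and Adh7 are highest in the Vwf and Bmp4 cluster (214 to 538 and 258 to 421 CPM), and Rbp4 is higher in the Hhip and Serpinf1 than in the Pi16 and Clec3b cluster.

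Among endothelial-, fibroblast- and smooth muscle-like cells, the retinal dehydrogenases, which make retinoic acid, were found mainly in fibroblast-like cells. Aldh1a1 held 3.13, 7.34 and 12.5 CPM in the endothelial-like sets, 41.8, 69.0 and 89.2 CPM in the fibroblast-like sets and 2.30, 1.64 and 0.350 CPM in the smooth muscle-like sets. The fibroblast-like sets lay above all the others, at a mean of 66.7 ± 23.8 CPM, which was 46.6 times the smooth muscle-like mean of 1.43 ± 0.992 CPM. The endothelial-like mean was 7.65 ± 4.68 CPM, and T cell-like cells held 2.61 CPM.

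The fibroblast-like clusters held similar levels of Aldh1a1. The Hhip and Serpinf1 cluster had 32.1, 66.9 and 92.3 CPM, and the Pi16 and Clec3b cluster had 47.0, 70.1 and 87.7 CPM, so the sets overlapped. Within the endothelial-like class the Vwf and Bmp4 cluster held 28.0 CPM and the Gpihbp1 and Fabp4 cluster 3.57 CPM. Aldh1a7, a close copy of Aldh1a1 with which reads can be shared, held 1.57, 0.459 and 0.542 CPM in the endothelial-like sets and 0 in the fibroblast-like sets.

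Aldh1a2, the main retinoic acid-producing enzyme of the embryo, held 0 UMIs in each endothelial-like set, 5.58, 13.6 and 2.70 CPM in the fibroblast-like sets and 0.575, 0.205 and 0 CPM in the smooth muscle-like sets. The fibroblast-like sets were the highest, at a mean of 7.29 ± 5.65 CPM. No UMI was left in their cells that held no T cell RNA, but these were only 19, 19 and 11 cells with 151875, 134437 and 72179 UMIs. The loss of depth and the loss of T cell RNA cannot be told apart here. Over all cells, 158 UMIs lay in fibroblast-like cells (16.0 CPM, 95% exact interval 13.6 to 18.6), 12 in smooth muscle-like cells (0.198 CPM) and 1 in endothelial-like cells (0.173 CPM). The Pi16 and Clec3b cluster held 22.8 CPM and the Hhip and Serpinf1 cluster 4.35 CPM, and in the Pi16 and Clec3b cluster 311 cells had an Aldh1a1 UMI, 50 an Aldh1a2 UMI and 31 both. In the Hhip and Serpinf1 cluster 328 cells had an Rbp4 UMI, 150 an Aldh1a1 UMI and 108 both.

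Outside the main wall classes, mesothelial-like cells, the lining of the outer surface (48 cells), held 376 CPM of Aldh1a2 (326 to 431) and 298 CPM of Aldh1a1 (254 to 347). Chondrocyte- or tendon-like cells (97 cells) held 227 CPM of Aldh1a1 (196 to 261) and 183 CPM of Rbp4. Pericyte-like cells (119 cells) held 35.9 CPM of Aldh1a1 and 43.3 CPM of Rbp4. These classes had too few cells with 1 hashtag to give a value in all 3 sets.

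Rarres2, the gene of secreted chemerin, was found throughout the mural and adventitial cells. Its level was 24.3, 36.2 and 35.8 CPM in the endothelial-like sets, 842, 952 and 846 CPM in the fibroblast-like sets and 587, 501 and 512 CPM in the smooth muscle-like sets. The classes did not overlap, and the means were 32.1 ± 6.78, 880 ± 62.2 and 533 ± 46.6 CPM. The fibroblast-like mean was 1.65 times the smooth muscle-like mean. The endothelial-like level was close to the 31.3 CPM of T cell-like cells.

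Across the smooth muscle-like clusters Rarres2 ranged from 479 to 588 CPM, with the Tnnt2 and Actc1 cluster the highest, which was the lowest for Rbp4. The Pi16 and Clec3b cluster held 962, 994 and 933 CPM and the Hhip and Serpinf1 cluster 618, 866 and 663 CPM, and these sets did not overlap. This is the reverse of the order of Rbp4 in the same clusters. Pericyte-like cells held 695 CPM. Mesothelial-like cells held 7114 CPM (6893 to 7341). After thinning, 59.2% of fibroblast-like and 42.2% of smooth muscle-like cells had a Rarres2 UMI, against 2.80% of endothelial-like and 3.37% of T cell-like cells.

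**Figure D4:**
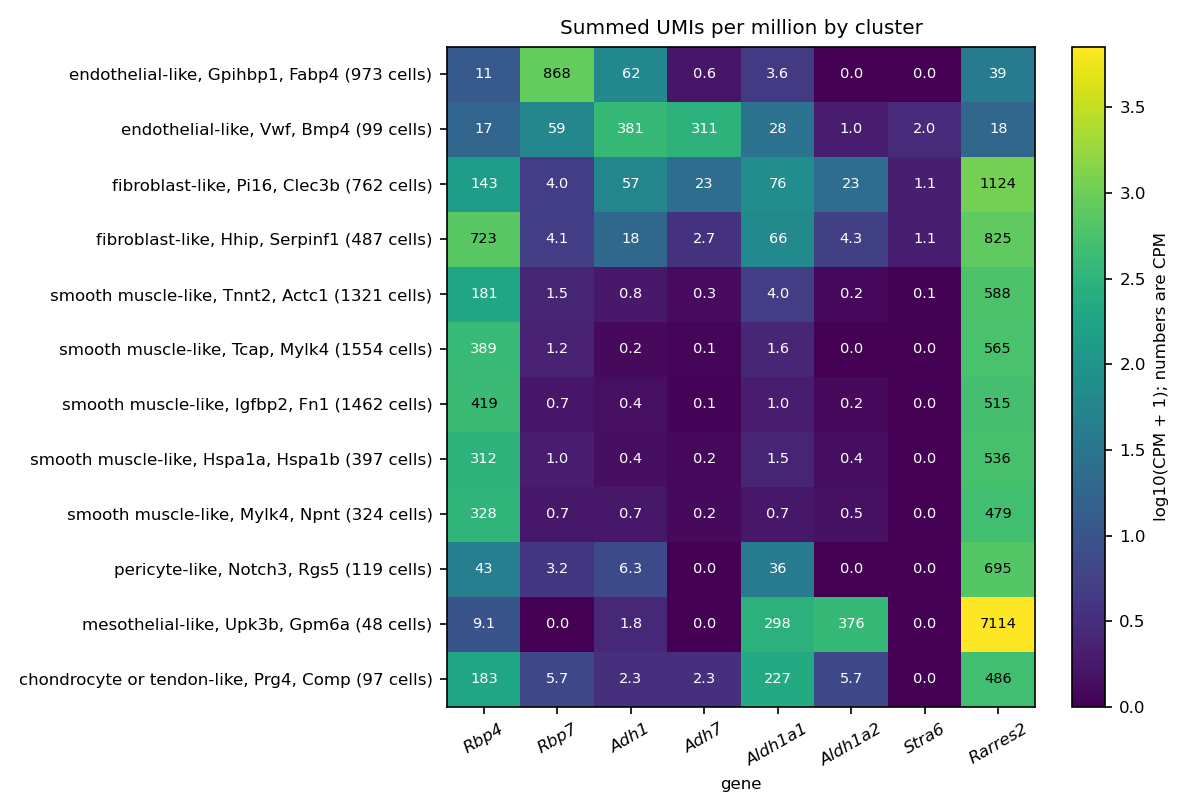
Levels of the 8 genes (columns) in the clusters of wall cells (rows, named by class and leading genes), coloured by log10 of CPM plus 1, with the CPM over all cells of the cluster written in each cell. Rbp7 stands out in the Gpihbp1 and Fabp4 endothelial-like cluster (868 CPM), Adh1 and Adh7 in the Vwf and Bmp4 endothelial-like cluster (381 and 311 CPM), Rbp4 in the Hhip and Serpinf1 fibroblast-like cluster (723 CPM), and Aldh1a2 (376 CPM) and Rarres2 (7114 CPM) in the mesothelial-like cluster.

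Genes with the most similar pattern to each member were ranked by Pearson's r of log2(CPM + 10) over the 18 clusters of at least 30 cells, among 6633 genes that reached 50 CPM in at least 1 of them. The clusters share a pool and differ in depth and size, so r is a description. Rbp4 was most like Mfap4 (0.97), Pmepa1 (0.95) and Prdm6 (0.94). Rbp7 was most like Adgrl4 (0.99), Ushbp1 (0.99) and Bcl6b (0.99). Adh1 was most like Ecscr (0.95), Lmo2 (0.93) and Fgd5 (0.92), while Adh7 was most like Gkn3 (0.96), Mmrn1 (0.96) and Prox1 (0.95). Aldh1a1 had the lowest best match (Igfbp5, 0.86). Aldh1a2 was most like Prlr, Rspo1 and Sh2d4a (0.99, 0.99 and 0.98), and Rarres2 was most like Cys1 (0.97), Mmp23 (0.96) and Plekhh2 (0.94). Stra6 reached 50 CPM in no cluster. Aldh1a2 (376 CPM in mesothelial-like cells), Adh7 (311 CPM in the Vwf and Bmp4 cluster) and Rbp7 (in the Gpihbp1 and Fabp4 cluster) each peaked in a single ranked cluster. Their r therefore rests mainly on that cluster.

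The class comparisons were then fitted over all genes with edgeR, in sums per set and class, and genes past both an adjusted p of 0.05 and a 2-fold difference (1 on the log2 scale) in either direction were called. Each pair of comparisons shares the sums of a class, so their values are not independent. The filter on low counts passed 6 of the 8 members in every comparison, all but Aldh1a2 and Stra6. For fibroblast-like against smooth muscle-like cells the sets of 5 of the 6 tested members did not overlap, and neither did those of 48.6% of the 10223 genes tested, of which 23.1% were called. For endothelial-like against smooth muscle-like cells it was 6 of 6 tested members and 64.0% of 10900 genes, of which 33.1% were called. For endothelial-like against fibroblast-like cells it was 4 of 6 tested members and 52.7% of 9852 genes, of which 30.1% were called. The untested Aldh1a2 did not overlap in either comparison with fibroblast-like cells. The members were chosen from these levels, so nothing is read from these counts.

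Among the other pathway genes, the largest change of fibroblast-like against smooth muscle-like cells was that of Aldh1a3. Of 62 other retinoid pathway genes in 8 lists, 28 were tested, of which 7 were higher, 3 lower and 18 not called. Their median log2 fold change was 0.14, against 0.02 over all genes, of which 12.7% were called higher and 10.4% lower. By list, 1 of 1 tested retinal dehydrogenases, 2 of 6 nuclear receptors, 2 of 6 retinoic acid-responsive genes, 1 of 1 degrading enzymes and 1 of 2 chemerin receptors were higher and 1 gene each of the receptor, responsive and chemerin receptor lists was lower, while none of 8 oxidoreductases or 3 binding and uptake genes was called.

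Aldh1a3, another retinal dehydrogenase gene, averaged 43.7 ± 12.3 CPM in fibroblast-like sets, against 0.117 CPM in smooth muscle-like sets, where 1 UMI was found in all 3. By cluster it held 63.3 CPM in the Pi16 and Clec3b cluster and 0.815 CPM in the Hhip and Serpinf1 cluster. Nr2f2, an orphan nuclear receptor, averaged 193 ± 25.5 CPM in fibroblast-like sets and 46.9 ± 2.80 CPM in smooth muscle-like sets (log2 fold change 1.88 ± 0.13 SE, edgeR adjusted p = 1.3e-10). The retinoic acid receptor genes Rara (28.0 ± 7.89 against 6.96 ± 2.53 CPM, adjusted p = 1.38e-04) and Rarg (43.7 ± 2.13 against 16.4 ± 1.93 CPM, adjusted p = 1.03e-04) were also higher in edgeR's test. Nr2f1 was higher by 1.64 ± 0.32 (adjusted p = 3.04e-04, and 0.0617 without the set of 84 weeks). Cyp26b1, which degrades retinoic acid, was higher by 1.36 ± 0.46 (adjusted p = 0.0228), a call lost without any of the 3 sets (adjusted p = 0.0501 to 0.0782).

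Tgm2, the gene of a transglutaminase that responds to retinoic acid, was lower in fibroblast-like cells, at 45.4 ± 21.2 against 151 ± 12.0 CPM in smooth muscle-like cells (-2.07 ± 0.20, edgeR adjusted p = 3.16e-08). Of the chemerin receptors, Cmklr1, which signals, was higher (27.0 ± 0.870 against 12.4 ± 2.65 CPM, adjusted p = 0.00781) and Ccrl2, which does not, was lower (7.26 ± 3.37 against 15.8 ± 0.376 CPM, adjusted p = 0.0110). Without the set of 84 weeks the adjusted p of Cmklr1 was 0.129 and that of Ccrl2 was 0.209, and without the set of 81 weeks the log2 fold change of Cmklr1 was 0.92. Ppard was lower in fibroblast-like cells (-1.27 ± 0.42, adjusted p = 0.0196, and 0.252 without the set of 84 weeks). DESeq2 called none of Cyp26b1, Ccrl2, Ppard and Cmklr1 (adjusted p = 0.125 to 0.250). Of the 10 pathway genes called, the count fell to 5 without the set of 84 weeks and to 4 without cells that held T cell RNA, where the adjusted p was 0.199 for Nr2f1, 0.184 for Rarg and 0.169 for Cmklr1. Leaving out these cells left 19, 19 and 11 fibroblast-like cells in the sets, against 38, 112 and 44, so the loss of depth and of T cell RNA cannot be told apart.

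Endothelial-like cells held more Fabp5, Scarb1 and Lipe than smooth muscle-like cells. Of 30 tested pathway genes 9 were higher, 6 lower and 15 not called, at a median of 0.05 against 0.01 over all genes, of which 16.6% were called in each direction. By list, 2 of 3 tested binding and uptake genes, 1 of 2 storage genes, 2 of 6 nuclear receptors, 3 of 7 retinoic acid-responsive genes and 1 of 1 degrading enzymes were higher, while 1 binding or uptake gene, 2 of 9 oxidoreductases and 1 gene each of the receptor, responsive and chemerin receptor lists were lower. Fabp5, which can carry retinoic acid, averaged 936 ± 63.6 CPM in endothelial-like sets and 24.1 ± 2.02 CPM in smooth muscle-like sets (5.22 ± 0.11, edgeR adjusted p = 9.32e-12). Scarb1, a lipoprotein receptor that also takes up carotenoids, averaged 153 ± 13.2 against 4.67 ± 1.48 CPM (5.09 ± 0.16, adjusted p = 2.05e-10). Lipe, the gene of hormone-sensitive lipase, averaged 65.4 ± 15.5 against 4.01 ± 1.19 CPM (adjusted p = 2.76e-08). The retinoic acid-responsive genes Rai14 (40.6 ± 7.25 against 2.65 ± 1.5 CPM) and Rarres1 (42.3 ± 10.2 against 5.77 ± 3.14 CPM) were higher too (adjusted p = 4.38e-07 and 3.74e-06).

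The short-chain dehydrogenase genes Rdh5 (-1.66 ± 0.30, edgeR adjusted p = 5.6e-04) and Dhrs4 (-1.07 ± 0.20, adjusted p = 6.58e-04) were lower, and the change of Dhrs4 was -0.90 without the set of 81 weeks. Rara was higher by 1.23 ± 0.32 (adjusted p = 0.00574), under the fold limit without the set of 81 weeks (0.99) or 88 weeks (0.96), and Rarg by 1.70 ± 0.18 (adjusted p = 8.78e-06). Rarb was lower, at 1.29 against 6.36 CPM (-2.22 ± 0.61, adjusted p = 0.00876). Cmklr1 was lower, at 6.30 ± 4.05 against 12.4 ± 2.65 CPM, but the sets overlapped and the adjusted p of 0.0152 rose to 0.0671 when the set of 84 weeks was left out and to 0.0755 when that of 88 weeks was.

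Endothelial-like against fibroblast-like cells gave 8 higher, 6 lower and 15 not called of 29 tested pathway genes (median 0.07, against 0.01 over all genes, of which 13.9% were called higher and 16.2% lower). By list, 2 of 3 binding and uptake genes were higher and 1 lower, and 3 of 7 retinoic acid-responsive genes were higher and 2 lower. Of the storage genes 1 of 2, of the oxidoreductases 1 of 7 and of the degrading enzymes 1 of 1 were higher, and 1 of 1 retinal dehydrogenases, 1 of 6 nuclear receptors and 1 of 2 chemerin receptors were lower. The sets of the degrading enzyme gene, Cyp26b1, overlapped between these classes. The higher genes with the largest changes were Fabp5 (4.24 ± 0.24), Lipe (4.14 ± 0.38), Scarb1 (4.10 ± 0.26), Rarres1 (2.76 ± 0.41) and Rai14 (2.18 ± 0.33), with edgeR adjusted p of 2.24e-10 to 3.87e-05. Aldh1a3 was lower, at 2.19 ± 2.90 CPM in endothelial-like and 43.7 ± 12.3 CPM in fibroblast-like sets (-4.53 ± 0.54, adjusted p = 3e-06). Nr2f1 (-3.27 ± 0.46), Cmklr1 (-2.18 ± 0.41) and Nr2f2 (-1.84 ± 0.19) were also lower. Rarb was lower (-2.30 ± 0.76, adjusted p = 0.0233), and DESeq2 did not call it (adjusted p = 0.156).

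The RXR genes, whose proteins pair with RAR, passed no call. Rxra averaged 23.3 CPM in endothelial-like, 22.7 CPM in fibroblast-like and 25.5 CPM in smooth muscle-like sets, and Rxrb averaged 24.5, 23.4 and 21.6 CPM in the same classes. Rxrg (0.640, 2.67 and 0 CPM) and the chemerin receptor gene Gpr1 (1.80, 0.697 and 0 CPM) were too low to be tested. Ccrl2 averaged 15.2 ± 7.29 CPM in endothelial-like sets and was not called against either other class.

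**Figure D5:**
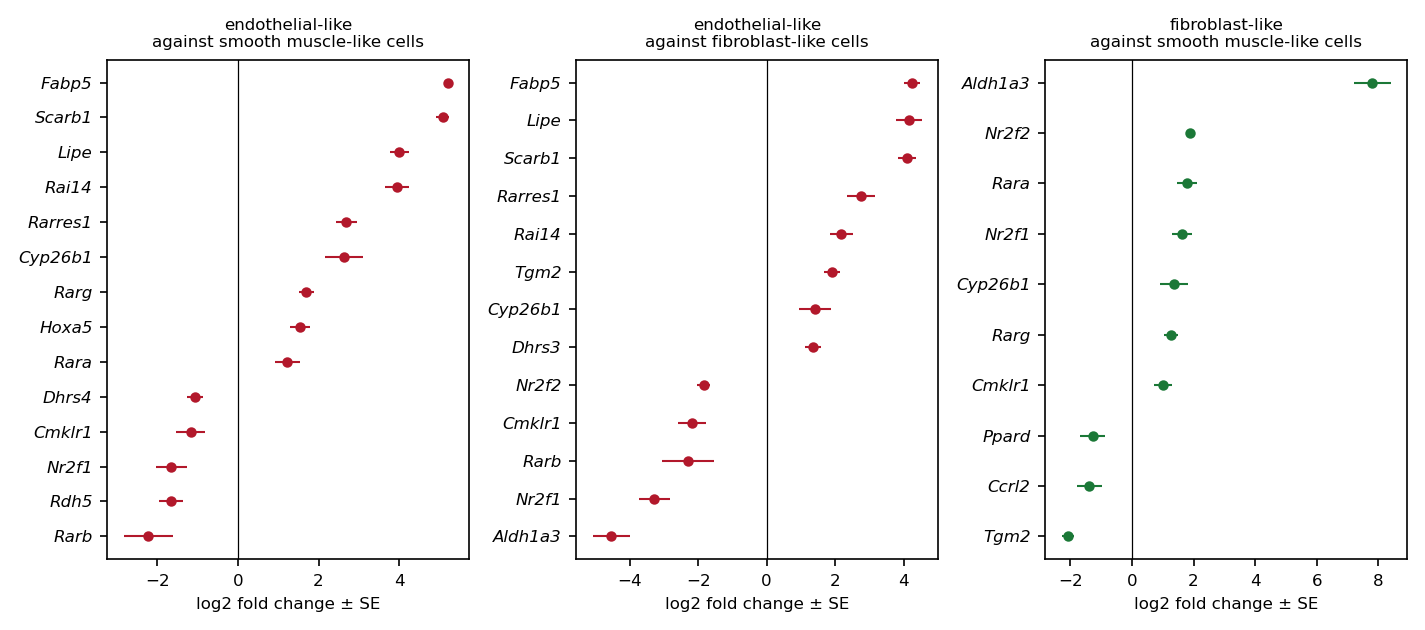
Log2 fold changes with their standard errors (horizontal axis) of pathway genes called in each of the 3 class comparisons, the members left out. Aldh1a3 has the largest change for fibroblast-like against smooth muscle-like cells (7.80), a fitted value against 1 UMI, and Fabp5 the largest increase for endothelial-like against smooth muscle-like (5.22) and against fibroblast-like cells (4.24).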

How the data were processed

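The deposited matrix holds raw counts of UMIs per gene and cell, made by the authors with Cell Ranger 6.0.1 per the file headers, and the submitters' processing notes name Seurat 4.0.5 and the mm10 build. It pools all libraries. A deposited table names the animal of each hashtag.

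Hashtags were called with HTODemux (Seurat 5.3.0), with cutoffs of 129, 765 and 266 UMIs for 81, 84 and 88 weeks. Cells had at least 500 genes, at least 1000 UMIs and under 15% mitochondrial UMIs, which left 11301. Scrublet's own threshold marked 1 of them, so the 690 top-scoring cells (6.11%, for an expected share of 0.06) were called doublets. Another 490 with more than 1 hashtag were left out. Leiden clustering of the remaining 10121 used igraph 0.11.9 through scanpy 1.11.5 (2000 variable genes, 30 components, 15 neighbours, resolution 0.8) and left out the members and the pathway genes, mitochondrial and ribosomal protein genes, which gave 23 clusters. Classes were named from fixed markers (mean score of at least 1.5 and at least 3 markers raised at least 2-fold above the median cluster), and can differ from the authors' own. Clusters are called by leading genes.

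UMIs were summed per animal and class, from at least 10 cells, and tested two-sided with edgeR 4.0.16 (R 4.3.3): quasi-likelihood F test, TMM, its low-count filter, the animal as a block, and Benjamini-Hochberg adjustment over all genes tested. DESeq2 1.42.0 was an alternative. The hashtag marks the same animal in every class, which pairs the sums. The deviations of same-animal sums had a Pearson's r of -0.0349 to 0.219. For 81 and 84 weeks this r was above the highest r with another animal's sums in all 3 comparisons. For 88 weeks it was below it in all 3 (-0.0349 against 0.0724, 0.0362 against 0.0400 and -0.0212 against 0.0310). The median hashtag count over its cutoff was 3 in endothelial-like, 1.44 in fibroblast-like and 1.35 in smooth muscle-like cells with 1 hashtag. The fibroblast- and smooth muscle-like sets may hold cells of other animals. The edgeR fit was also run on simulated counts with a fixed spread, no animal effect and no RNA of other cells. These settings differ from the data, so that run does not show how the fit performs here. Pooled levels carry exact Poisson intervals and shares exact binomial intervals, at 95%. In each comparison up to 5 called pathway genes each way were named, those with the largest changes, the same sign in every set and at least 10 CPM in the higher class, and the retinoic acid, RXR and chemerin receptor genes always. A gene that this rule names is counted in the totals but not reported here. Cluster levels of other genes were picked after their values were seen.

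Members, lists and tests were chosen with earlier results of these data known, and the doublet threshold and the alternative without a smooth muscle-like cluster were chosen after seeing the data. RefSeq positions and promoters are of GRCm38.p6.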

Additional observations from a re-analysis of the deposited data

Results flagged for a closer look

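The values below were measured in cell classes outside the endothelial-, fibroblast- and smooth muscle-like comparisons and lay above the highest cluster of those 3 classes for the same gene. No test was made, since these classes hold few cells, and no cause was tested.

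For Aldh1a1, whose highest fibroblast-like cluster held 75.7 CPM, the level was 2286 CPM in the epithelial-like cluster led by Scgb1a1 and Scgb3a1 (24 cells), genes known from airway epithelium, and 348 CPM in the epithelial-like cluster led by Aqp3 and Krt15 (19 cells). It was 298 CPM in mesothelial-like cells (48 cells), 278 CPM in Schwann-like cells (18 cells) and 227 CPM in chondrocyte- or tendon-like cells (97 cells). For Aldh1a2, mesothelial-like cells held 376 CPM, against 22.8 CPM in the Pi16 and Clec3b fibroblast-like cluster. For Rarres2, mesothelial-like cells held 7114 CPM, against 1124 CPM in the same fibroblast-like cluster.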

How the results depend on the processing

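Genes called between fibroblast-like and smooth muscle-like cells numbered 2357, and 1144 with hashtag counts of at least 2 times the cutoff (2 sets left for the fibroblast-like class) and 1363 without cells holding T cell RNA (19, 19 and 11 fibroblast-like cells left). Pathway genes called there were 10, and 6 with DESeq2, 5 with the stricter hashtag and 4 without T cell RNA. Between endothelial-like and fibroblast-like cells the 2962 genes called became 1754 and 1923, and the 14 pathway genes 8 and 9, under the same 2 hashtag and T cell settings. Leaving out a set at a time gave 1713 to 2381 genes and 5 to 10 pathway genes for fibroblast-like against smooth muscle-like cells, 2348 to 2980 and 12 to 16 for endothelial-like against fibroblast-like cells, and 3375 to 3576 and 13 to 15 for endothelial-like against smooth muscle-like cells (3608 and 15 with all sets). Without the replicate block the counts were 2168, 3388 and 2623 genes and 9, 15 and 12 pathway genes in the order fibroblast-like against smooth muscle-like, endothelial-like against smooth muscle-like and endothelial-like against fibroblast-like cells. The cause of these changes was not tested. Alternative values for single pathway genes were counted only where the fit still tested the gene. With the stricter hashtag 18 kept the call and 3 lost it, and without T cell RNA 20 and 3, against 27 and 6 with DESeq2, so fewer were tested there. Of all alternative values counted, 356 kept the call, 35 lost it and none reversed. Without doublet removal Cyp26b1 and Ppard lost the call (fibroblast-like against smooth muscle-like cells, edgeR adjusted p = 0.113 and 0.279). Rarb (endothelial-like against fibroblast-like cells) lost it at an adjusted p of 0.0769 without doublet removal and 0.0518 without the filter, and Rai14 at 0.115 with the stricter hashtag. Of the alternative class levels of members 199 stayed within 1 SD and 25 did not. The 199 include 24 for each set left out in turn. Leaving out a set cannot move a mean of so few sets by 1 SD, so nothing is read from those values. The 25 all came from the other settings. Among them was Rbp7 in fibroblast-like cells (38.6 CPM with the stricter hashtag, 1.83 CPM without a hashtag). Another was Adh7 in fibroblast-like cells (0 CPM with the stricter hashtag). Depth limits Stra6, Aldh1a2, Rxrg and Gpr1.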

Other observations

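Adh7 was also found outside the wall classes. The epithelial-like cluster led by Scgb1a1 and Scgb3a1 (24 cells) held 320 CPM (95% exact interval 283 to 361, 270 UMIs) and that led by Aqp3 and Krt15 (19 cells) held 218 CPM (166 to 282, 59 UMIs), while a further epithelial-like cluster led by Tbata and Prss16 (26 cells) held none. The Scgb1a1 cluster is near the 311 CPM of the Vwf and Bmp4 endothelial-like cluster.

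B cell-like cells (24 cells) held 255 CPM of Rbp4 (187 to 339, 47 UMIs), and 8 of them had an Rbp4 UMI. All 8 also had a Rarres2 UMI, and the cluster held 20733 CPM of summed smooth muscle markers (10 of 10 detected), against 36993 to 43573 CPM in the smooth muscle-like clusters, so that the Rbp4 level cannot be assigned to B cells.

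Cyp26b1, the gene of an enzyme that degrades retinoic acid, differed between the sets of the endothelial-like class, at 103, 21.1 and 6.51 CPM for 81, 84 and 88 weeks, and in the Vwf and Bmp4 cluster, at 390, 97.1 and 2.30 CPM. In the fibroblast-like sets it was 16.7, 8.37 and 18.9 CPM, so at 88 weeks the fibroblast-like value was the higher. Each age is a single animal, so the difference between sets has no replicates. It was chosen after its values were seen.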
